A study of Mus musculus with 12 samples.

Results

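The contractile smooth muscle cytoskeleton genes Acta2, Tagln, Tagln2, Cnn1, Cnn2, Myl9, Tpm1, Tpm2 and Actg2 were followed as 9 named members of a table of 17901 genes. The list was chosen by the measured levels of Acta2 and Tagln in serum/LIF, which were higher in the knockout cells, so the values of that comparison are given below as a description, with no test. All 9 were in the table, and all 9 passed the filter on low values (10 or above in 3 libraries or more), as did 15750 genes in all; Actg2 stayed under 10 in the 3 wild-type libraries in serum/LIF and passed through the other groups.

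The cells were TT2, a line of mouse embryonic stem cells, in 4 groups of 3 libraries. DKO RA were double knockout cells, without Rlf and Zfp292 (both genes of zinc finger proteins), treated for 72 hours with retinoic acid (RA) at 5 µM and no LIF; WT RA were wild-type cells treated alike; DKO serum/LIF and WT serum/LIF were the same genotypes kept in embryonic stem cell medium with LIF, on gelatin, in knockout serum replacement with a little fetal bovine serum. The labels call the replicates biological but do not say whether they, or the knockout, come from 1 clone or several. The p-values thus set group differences against the spread between these libraries only. Differences between genotypes cannot be told apart from differences between clones. RNA was sequenced as paired reads, and the values are counts that the authors divided by a size factor for each library, called normalized counts here.

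Smooth muscle shortens when myosin II pulls on filaments of actin. Acta2 and Actg2 encode the actins of vascular and enteric smooth muscle, tropomyosins lie along those filaments, calponins and transgelins bind them, and the regulatory light chain encoded by Myl9 turns the myosin on when it is phosphorylated. Many of these genes are textbook targets of serum response factor (SRF), which binds CArG boxes together with myocardin or with the actin-sensing coactivators MRTF-A and MRTF-B, and they are also made by myofibroblasts and by spread cells in culture. Stem cells kept with LIF are not muscle, and RA without LIF makes them leave the undifferentiated state.

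The promoters of Acta2, Cnn2 and Myl9 are shown because they were the members with a CArG-like stretch in the window read, and because Cnn2 and Myl9 moved in opposite directions in the knockout after RA. RefSeq's promoter table (GRCm38.p6, the mm10 build) held 7 of the 9 members. Tagln and Actg2 were not in it, so their promoters were not searched for any motif. Each window runs from 250 bases before to 50 bases after the annotated start. Acta2 lies on the minus strand (chr19:34255324-34255623), Cnn2 on the plus strand (chr10:79988350-79988649) and Myl9 on the plus strand (chr2:156775214-156775513). Capitals mark CArG boxes with at most 1 letter of the A/T core differing, and the MCAT motif CATTCC in either direction.
Acta2: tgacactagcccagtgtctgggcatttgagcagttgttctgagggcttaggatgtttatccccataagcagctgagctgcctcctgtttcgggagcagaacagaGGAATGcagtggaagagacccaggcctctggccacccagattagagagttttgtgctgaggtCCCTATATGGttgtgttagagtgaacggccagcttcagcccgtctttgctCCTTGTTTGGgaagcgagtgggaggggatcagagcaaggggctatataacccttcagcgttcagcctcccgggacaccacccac
Cnn2: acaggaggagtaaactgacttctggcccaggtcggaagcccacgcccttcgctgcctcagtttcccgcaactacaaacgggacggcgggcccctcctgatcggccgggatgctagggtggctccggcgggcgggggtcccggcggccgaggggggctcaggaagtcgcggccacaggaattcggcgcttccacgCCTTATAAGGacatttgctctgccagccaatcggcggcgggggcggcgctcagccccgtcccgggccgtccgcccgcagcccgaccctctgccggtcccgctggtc
Myl9: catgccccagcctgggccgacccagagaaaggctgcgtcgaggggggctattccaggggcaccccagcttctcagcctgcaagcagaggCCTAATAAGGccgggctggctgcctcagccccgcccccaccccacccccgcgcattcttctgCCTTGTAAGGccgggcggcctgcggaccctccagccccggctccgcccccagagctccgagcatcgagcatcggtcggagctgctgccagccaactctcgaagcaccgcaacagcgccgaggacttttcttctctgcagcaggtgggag

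An exact CArG box stood 56 bases upstream of the Cnn2 start (CCTTATAAGG) and 161 bases upstream of the Myl9 start (CCTAATAAGG). Exact boxes were found on either strand in 535 of 32851 promoters of the table, 1.63%. With 1 core mismatch allowed the share was 9.98%, and matches were CCCTATATGG and CCTTGTTTGG at 84 and 34 bases upstream of Acta2 and CCTTGTAAGG at 99 bases upstream of Myl9. MCAT was found in 14.7% of promoters and, among the members, in Acta2, Tagln2 and Tpm1. TATAAA (13.6% of promoters) was in none of the 7 windows. Nor was the retinoic acid element DR5, searched only as an exact AGGTCA repeated after a gap of 5 bases. Such exact matches were so rare (3 promoters, 0.00913%) that their absence from 7 windows says nothing, and looser forms were not searched. Cnn1 and Tpm2 had no match to any of these motifs. These are matches of letters within 1 short window, on both strands, and no binding was measured.

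The labels held for the targeted genes. Rlf had 1 read in all in DKO RA and 6 in DKO serum/LIF, against 2611 ± 131 normalized counts in WT RA and 3611 ± 96.3 in WT serum/LIF (SD, n = 3), and Zfp292 had 0 reads in the 6 DKO libraries. Libraries held 30869766 to 40236799 reads in genes. WT RA replicate 2 stood apart: rRNA-class repeats took 41.7% of its signal in the repeat table, against 4.14% to 7.28% in the other 11 libraries. Its gene counts also differed more from the other WT RA libraries (chi-square per degree of freedom 10.1 and 14.2, against 5.06 between those). The main comparison after RA is therefore also given without it.

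After RA, 5 of the 9 genes were higher in DKO than in WT cells (Acta2, Tagln, Tagln2, Cnn2 and Tpm1, by 1.43 to 1.82 times), 2 were lower (Myl9 by 4.49 times and Cnn1 by 1.35 times), and Tpm2 and Actg2 did not pass the test. A call means an adjusted p under 0.05 in a limma fit over all genes. These RA libraries were not used to choose the genes. Of all genes tested, 42.7% were called in this comparison, 22.0% higher and 20.7% lower. The median log2 fold change of the 9 genes was 0.52, against 0.01 over all genes. The library ranges did not overlap for these 7 genes, as for 28.0% of all genes on the higher side and 26.5% on the lower side. Without WT RA replicate 2 the same 5 were called higher and the same 2 lower. RNA was measured in bulk, so more cells with a transcript and more transcript per cell cannot be told apart here or below.

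**Figure D1:**
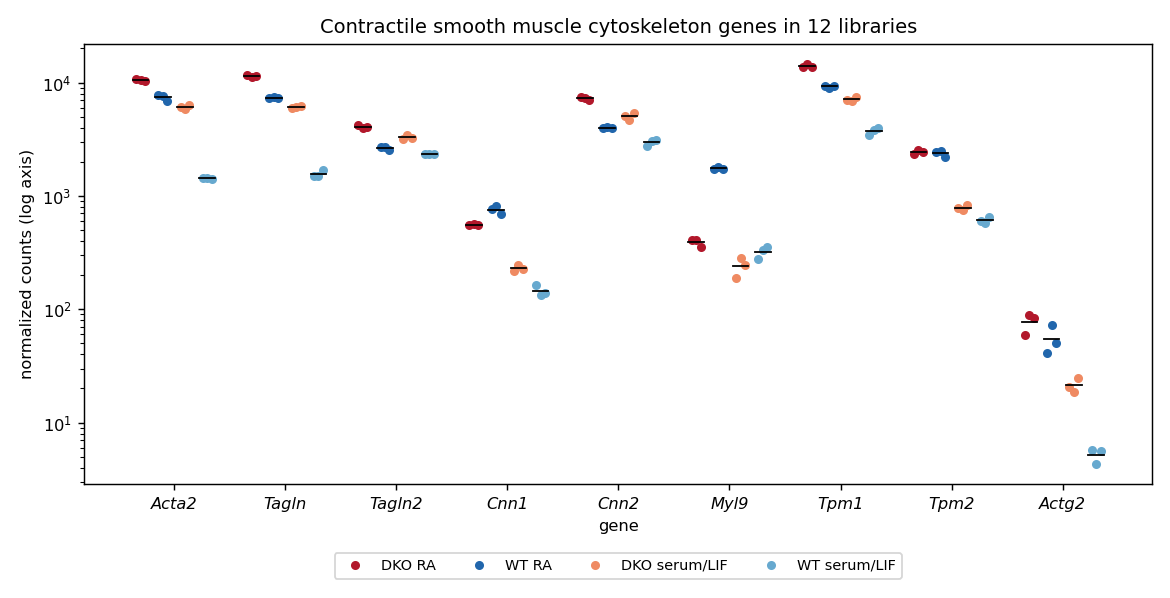
Normalized counts (log axis) of the 9 genes in the 12 libraries; points are libraries, black lines are means of 3, and groups run DKO RA, WT RA, DKO serum/LIF, WT serum/LIF within each gene. Myl9 stands at 351 to 409.6 in DKO RA against 1727 to 1784 in WT RA, while Acta2 and Tagln are highest in DKO RA and lowest in WT serum/LIF.

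Acta2, the smooth muscle alpha actin, spans chr19:34240336-34255373 on the minus strand and is the member best known as a marker of contractile smooth muscle and myofibroblasts. It had 10718, 10515 and 10413 normalized counts in DKO RA and 7709.8, 7539 and 6900.3 in WT RA. Serum/LIF values were 6021, 5827 and 6363 in DKO and 1431, 1424 and 1421 in WT. The groups did not overlap in either condition, and WT serum/LIF was far below the other groups. After RA it was 1.43 times as high in DKO as in WT (log2 fold change 0.52 ± 0.04 SE, limma adjusted p = 1.25e-09). In serum/LIF the ratio of DKO to WT was 4.26, the value that led to the choice of these genes.

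Actg2, the enteric gamma actin (chr6:83512909-83536251, minus strand), was the least abundant member. It had 58.8, 88.2 and 84.1 normalized counts in DKO RA and 41.4, 72.3 and 50.2 in WT RA, ranges that overlapped. With LIF it had 20.6, 18.8 and 24.8 in DKO, against 5.73, 4.30 and 5.61 in WT, the last of these resting on 6, 4 and 6 reads. The DKO to WT ratio was 1.41 after RA, which did not pass the test (log2 0.50 ± 0.35, limma adjusted p = 0.257), and 4.11 in serum/LIF. At this depth the difference after RA was not detectable.

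Tagln, or SM22 alpha, encodes transgelin, an actin-bundling protein of smooth muscle and an early marker of that lineage (chr9:45929628-45936058, minus strand). It had 11619.5, 11289.7 and 11424 normalized counts in DKO RA, against 7305, 7487 and 7282 in WT RA. Under LIF the values were 6009, 6088 and 6241 in DKO, against 1504, 1498 and 1699 in WT. Every DKO library was above every WT library of its condition. The increase after RA was 1.56 times (log2 0.64 ± 0.04, limma adjusted p = 3.55e-11), and the ratio in serum/LIF was 3.90. Exons of Pcsk7, on the opposite strand, share 108 bases with Tagln, and those of the unlisted Gm48529 share 1241; the sources used here do not say whether counting used strand, so reads of these genes cannot be told apart from those of Tagln.

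Tagln2 encodes the transgelin of many non-muscle cells (chr1:172500246-172507375, plus strand). It had 4221, 3937 and 4012 normalized counts in DKO RA, against 2673, 2701 and 2524 in WT RA. In serum/LIF it had 3171, 3466 and 3269 in DKO and 2363, 2326 and 2329 in WT. It was higher in DKO in both conditions, with ratios of 1.54 after RA (log2 0.62 ± 0.05, limma adjusted p = 1.35e-10) and 1.41 in serum/LIF. Unlike its paralogue Tagln it stood above its WT RA level in DKO serum/LIF, at 125% of the WT RA mean.

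Cnn1 encodes calponin 1, a late marker of differentiated smooth muscle (chr9:22099253-22109221, plus strand). It had 553, 569 and 549 normalized counts in DKO RA, against 772, 807 and 685 in WT RA. Serum/LIF values were 216, 245 and 228 in DKO and 164, 133 and 140.3 in WT. Every DKO library was thus below WT after RA and above WT in serum/LIF. The fall after RA was to 0.738 of WT (log2 -0.43 ± 0.11, limma adjusted p = 0.00211, and 0.0159 without WT RA replicate 2), and the ratio in serum/LIF was 1.57.

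Cnn2 encodes calponin 2, found in smooth muscle and in many other cell types (chr10:79988600-79995400, plus strand). It had 7433, 7259 and 7061 normalized counts in DKO RA, against 3943, 4029 and 4001 in WT RA. With LIF it had 5045, 4711 and 5357 in DKO and 2736, 3021 and 3140.2 in WT. Its increase after RA was 1.82 times (log2 0.86 ± 0.05, limma adjusted p = 1.67e-12), the highest ratio among the 9 genes, and the ratio in serum/LIF was 1.70. Cnn2 in DKO serum/LIF stood at 126% of the WT RA mean, so the knockout in LIF had more Cnn2 than differentiated WT cells.

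Tpm1 encodes a tropomyosin used, through different promoters and exons, in muscle and non-muscle cells (chr9:67027890-67049213, minus strand), and the gene counts do not separate those isoforms. It had 13769.8, 14567 and 13841 normalized counts in DKO RA, against 9398, 9029.6 and 9359 in WT RA. Under LIF the values were 6955, 6922 and 7410.4 in DKO and 3476, 3776 and 4005 in WT. All DKO libraries were above the WT ones in both conditions. The increase after RA was 1.52 times (log2 0.60 ± 0.05, limma adjusted p = 1.42e-10), and the ratio in serum/LIF was 1.89.

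Tpm2 encodes beta tropomyosin (chr4:43513726-43523554, minus strand). It had 2355, 2551 and 2452 normalized counts in DKO RA and 2417, 2486 and 2194 in WT RA, which overlapped. In serum/LIF it had 783, 746 and 828 in DKO and 605, 580.2 and 651 in WT. After RA the log2 fold change was 0.05 ± 0.07 (ratio 1.04, limma adjusted p = 0.539), so its paralogue Tpm1 passed the test and Tpm2 did not; the difference between the genes was not tested. In serum/LIF the ratio was 1.28.

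Myl9 encodes the smooth muscle regulatory light chain of myosin II (chr2:156775464-156781657, plus strand). It had 409.6, 407 and 351 normalized counts in DKO RA, against 1727, 1784 and 1731 in WT RA. Serum/LIF values were 188, 284 and 246 in DKO and 279.8, 329.9 and 354 in WT, ranges that overlapped slightly. After RA the groups lay far apart, with Myl9 4.49 times lower in DKO (log2 -2.17 ± 0.12, limma adjusted p = 9.98e-13), the largest genotype difference of the 9 genes in that condition. Its ratio of 0.744 in serum/LIF was the only one of the 9 below 1.

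**Figure D2:**
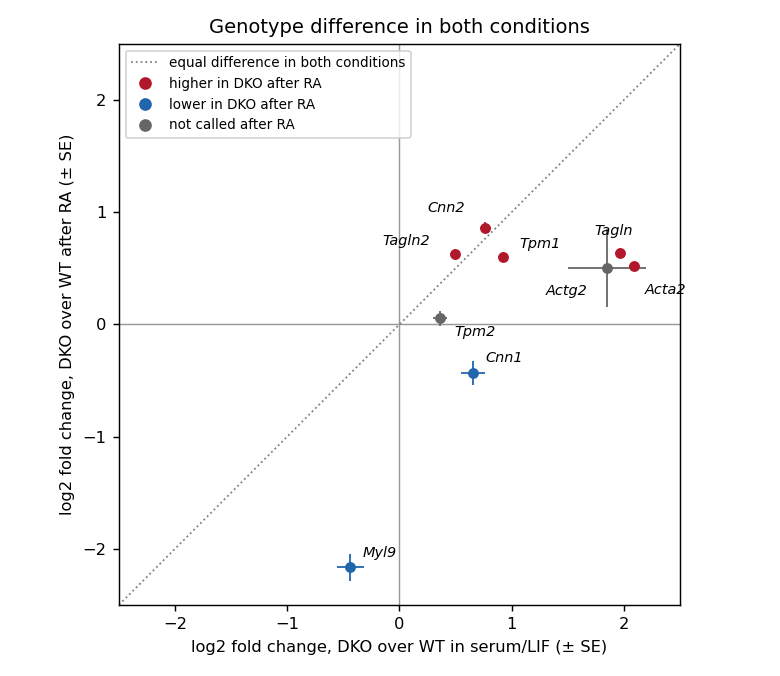
Log2 fold change of DKO over WT after RA (vertical axis) against the same in serum/LIF (horizontal axis) for each gene, with SE bars from the limma fit; colours give the call after RA, and the horizontal values chose the genes and are untested. Acta2, Tagln and Actg2 lie far below the dotted line of equal differences (2.09, 1.97 and 1.85 in serum/LIF), Tagln2 and Cnn2 lie just above it, and Myl9 lies at -2.17 after RA. The Actg2 value in serum/LIF rests on 6, 4 and 6 reads in WT.

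In serum/LIF, 8 of the 9 genes had DKO libraries all above the WT libraries, and for Myl9 the ranges overlapped. Among all genes tested, 22.0% had DKO ranges wholly above WT in this comparison, 21.9% had them wholly below, and 33.2% were called; since this comparison chose the genes, nothing is read from their count. Acta2, Tagln and Actg2 had ratios of 3.90 to 4.26, and the other genes had ratios of 0.744 to 1.89. The choice set no threshold on these values. The Actg2 ratio rests on 6, 4 and 6 reads in WT serum/LIF.

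All 9 genes had higher values with RA than in serum/LIF in both genotypes. Both comparisons use the serum/LIF libraries that chose the genes, and Actg2 passed the filter on low values without the WT serum/LIF libraries, so the members' values and counts here are a description and nothing is read from them. In DKO cells 9 of 9 were past the threshold and higher in the fit over all genes, where 78.3% of all genes were called and 40.2% were called higher; no member's ranges overlapped, as for 41.1% of genes on the higher side and 39.2% on the lower. In WT cells 9 of 9 were likewise past it, where 80.6% were called and 41.4% were called higher; again no ranges overlapped, as for 41.7% of genes on the higher side and 39.8% on the lower. The median log2 fold change of the 9 genes was 0.90 in DKO (0.04 over all genes) and 2.23 in WT (0.04 over all genes).

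For Acta2, Tagln, Actg2, Cnn1 and Myl9 the RA to serum/LIF ratio in WT was more than 2 times that in DKO. The RA to serum/LIF ratio of Acta2 was 1.74 in DKO, against 5.18 in WT. That of Tagln was 1.87 in DKO and 4.70 in WT, and that of Actg2 was 3.60 in DKO and 10.5 in WT, where its serum/LIF level rests on the few reads given above. The ratio of Cnn1 was 2.43 in DKO, against 5.17 in WT, and that of Myl9 was 1.63 in DKO, against 5.44 in WT.

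For Tpm1, Tpm2, Tagln2 and Cnn2 the ratios in the genotypes were closer. They were 1.98 in DKO and 2.47 in WT for Tpm1, and 3.12 in DKO and 3.86 in WT for Tpm2. Tagln2 had 1.23 in DKO and 1.13 in WT, and Cnn2 had 1.44 in DKO and 1.35 in WT. The differences between genotypes in these RA responses contain the serum/LIF comparison and were not tested.

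The level in DKO serum/LIF can be set beside the differentiated WT level. Acta2 reached 82.2% of its WT RA mean in DKO serum/LIF, against 19.3% in WT serum/LIF. Tagln reached 83.1% in DKO serum/LIF against 21.3% in WT serum/LIF, and Tpm1 reached 76.6% in DKO against 40.5% in WT. Under the same conditions Cnn1 reached 30.4% in DKO against 19.3% in WT, Tpm2 33.2% in DKO against 25.9% in WT, Actg2 39.2% in DKO against 9.54% in WT, and Myl9 13.7% in DKO against 18.4% in WT. As a description, mean levels in the knockout kept with LIF were near the differentiated WT level for Acta2, Tagln and Tpm1. They were above it for Tagln2 and Cnn2, and far under it for Cnn1, Tpm2, Actg2 and Myl9. The serum/LIF levels of Acta2 and Tagln led to the choice of these genes, so no test was made.

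Summed over the 9 genes, the normalized counts were 50836 ± 563 in DKO RA, 35549 ± 714 in WT RA, 28894 ± 929 in DKO serum/LIF and 13135 ± 592 in WT serum/LIF (SD, n = 3). Levels between genes can be compared only per length, here per kb of 1 annotated transcript a gene. Tpm1 was the highest in each group, with 11639 ± 365 normalized counts per kb in DKO RA, 7667 ± 167 in WT RA, 5874 ± 226 in DKO serum/LIF and 3106 ± 219.7 in WT serum/LIF. In DKO RA it was followed by Tagln (7175), Acta2 (5183), Cnn2 (2947), Tagln2 (2558), Tpm2 (2107), Myl9 (345), Cnn1 (234) and Actg2 (57.8), with no neighbours overlapping.

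In WT RA the order per kb was Tpm1, Tagln (4613), Acta2 (3628), Tpm2 (2032), then Tagln2 (1660.0) and Cnn2 (1622), which overlapped, then Myl9 (1549), Cnn1 (317) and Actg2 (41.0). In DKO serum/LIF it was Tpm1, Tagln (3832), Acta2 (2983), then Tagln2 (2082) and Cnn2 (2048), which overlapped, then Tpm2 (675), Myl9 (212), Cnn1 (96.4) and Actg2 (16.1). In WT serum/LIF, Tagln2 (1475) and Cnn2 (1206) came directly after Tpm1, and stood above Tagln (982), Acta2 (700.5), Tpm2 (526), Myl9 (285), Cnn1 (61.3) and Actg2 (3.91), with no neighbours overlapping. Thus Tagln and Acta2 followed Tpm1 in the 2 RA groups and in DKO serum/LIF, and the broadly expressed Tagln2 and Cnn2 did so in WT serum/LIF.

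The members belong to gene families that also hold genes used by most cells, and the make-up of each family was computed per kb. Acta2 was 6.91%, 7.07% and 6.88% of the 6 actin genes in DKO RA and 6.37%, 6.11% and 5.92% in WT RA. It was 2.82%, 2.75% and 2.90% in DKO serum/LIF, against 0.749%, 0.743% and 0.741% in WT serum/LIF. Actb and Actg1, the cytoplasmic actins, made up the bulk of the family in each group. Actb was 38.5% ± 0.334 in DKO RA and 42.5% ± 0.574 in WT RA, and 49.4% ± 0.257 in DKO serum/LIF and 62.4% ± 0.750 in WT serum/LIF (SD, n = 3).

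Tagln was 73.1% ± 0.329 of the 3 transgelin genes in DKO RA and 71.5% ± 0.824 in WT RA. In serum/LIF it was 63.3% ± 0.951 in DKO and 38.4% ± 1.78 in WT, where Tagln2 was the larger part at 57.8% ± 1.71. Transgelin make-up in DKO serum/LIF was thus closer to that of either RA group than to that of WT serum/LIF. This is a description, since the Tagln level in serum/LIF led to the choice of these genes. Tagln3, a transgelin of neurons, was under 4% in each library.

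Among calponins Cnn3 was the main gene in each group, and Cnn2 took 34.6% ± 0.774 in DKO RA against 22.4% ± 0.487 in WT RA. Cnn1 was 2.75% ± 0.0487 of the family in DKO RA and 4.38% ± 0.345 in WT RA. Among the 4 tropomyosins Tpm1 was 51.0% ± 0.278 in DKO RA and 43.9% ± 0.824 in WT RA, while Tpm2 was 9.24% ± 0.150 in DKO RA and 11.6% ± 0.718 in WT RA.

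Myl9 was 4.68%, 4.68% and 3.98% of the 3 regulatory light chain genes in DKO RA, against 18.9%, 19.4% and 20.1% in WT RA. In serum/LIF it was 2.65%, 3.82% and 3.26% in DKO and 4.48%, 5.05% and 4.95% in WT. The rise of the Myl9 share after RA seen in WT was small in DKO, where Myl12a, a light chain of most cells, held 68.2% ± 0.209 after RA and 68.5% ± 1.77 in serum/LIF.

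Some of these paralogues share exact sequence in their annotated transcripts: the longest run was 56 bases for Acta2 and Actg1, 47 for Acta2 and Actb, 38 for Actg2 and Actc1, 37 for Tpm1 and Tpm2, 35 for Myl9 and Myl12a and 15 for Tagln and Tagln2. These are shorter than the reads named in the labels. How reads that map to several places were counted is not given in the sources used here, so small levels beside an abundant paralogue, as for Actg2, are less certain.

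**Figure D3:**
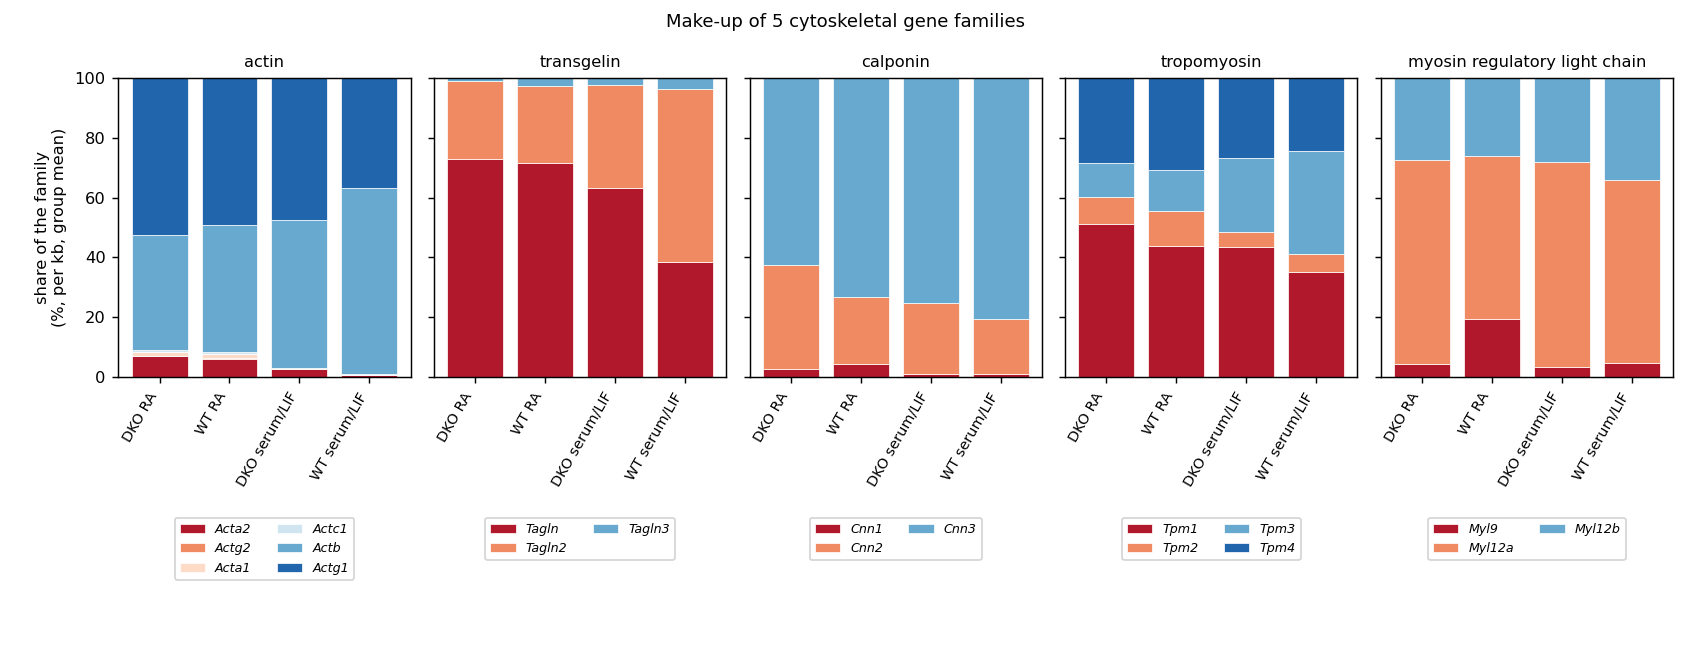
Mean share (%) of each gene within its family, from normalized counts per kb of 1 annotated transcript, in the 4 groups; each bar sums to 100%. Tagln takes 63.3% of the transgelins in DKO serum/LIF against 38.4% in WT serum/LIF, and Myl9 takes 4.45% of the light chains in DKO RA against 19.4% in WT RA.

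Across the 12 libraries, on the log2(value + 1) scale, the members fell into loose sets. Acta2 and Tagln had a Pearson correlation of 0.997, Tagln2 and Cnn2 of 0.968, and Cnn1 and Tpm2 of 0.973. Myl9 was the odd one, with 0.30 to Acta2 and -0.29 to Tagln2. These are descriptions over 12 libraries in 4 groups of 3, so the points within a group share its level. Among 11608 other genes with a mean of 100 or more, the 5 most like Acta2 in this sense were Pcdh7, Endod1, Ubqln2, Vim and Prom1 (0.989 to 0.993). Vim, the intermediate filament gene vimentin, had 22387 ± 258 normalized counts in DKO RA, 17584 ± 333 in WT RA, 16529 ± 215 in DKO serum/LIF and 9794 ± 405 in WT serum/LIF (SD, n = 3).

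SRF signalling, the textbook regulator of these genes, was followed in a list of 39 regulators and targets, none of them a member. After RA, 24 of 39 were called higher in DKO and 4 lower, with a median log2 fold change of 0.24, against 22.0% and 20.7% of all genes and a median of 0.01. The 4 lower were 1 without DKO RA replicate 3 or WT RA replicate 1, and 2 without DKO RA replicate 1, DKO RA replicate 2 or WT RA replicate 2 or in limma without trend and robust fitting. As a description, 24 were called higher and 3 lower in serum/LIF (median 0.39), where 17.8% and 15.4% of all genes were.

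Among the regulators, Srf had 1994 ± 67.9 normalized counts in DKO RA and 1926 ± 109 in WT RA, and 2019.7 ± 103 in DKO serum/LIF and 1786 ± 148 in WT serum/LIF (SD, n = 3). After RA its log2 fold change of 0.05 ± 0.06 did not pass the test (limma adjusted p = 0.532). Myocd, encoding myocardin, was scarce, with 65.2 ± 14.9 in DKO RA, 70.4 ± 10.3 in WT RA, 13.6 ± 15.5 in DKO serum/LIF and 5.94 ± 2.00 in WT serum/LIF. Its genotype difference after RA did not pass the test (log2 -0.12 ± 0.51, limma adjusted p = 0.868).

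Mrtfa was 1.15 times as high in DKO as in WT after RA (limma adjusted p = 0.00846), a call lost without DKO RA replicate 2 (0.0672). Mrtfb fell to 0.881 of WT (0.0238), a call lost without any 1 of the 3 DKO RA libraries or of WT RA replicates 1 and 3 (0.0524 to 0.106), and in limma without trend and robust fitting (0.0824). RA raised Mrtfb in both genotypes, 1.82 times in DKO and 2.39 times in WT (limma adjusted p = 6.62e-12 and 3.44e-15).

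The SRF and MRTF genes with the smallest adjusted p after RA were Flna, Vcl, Ccn2 and Actn1, all higher in DKO. Flna, which encodes the actin crosslinker filamin A, had 31226 ± 555 normalized counts in DKO RA and 21132 ± 907 in WT RA (1.48 times, limma adjusted p = 4.18e-12). Vcl, encoding vinculin of focal adhesions, had 13633 ± 479 in DKO RA against 8680.7 ± 541 in WT RA (1.57 times, 8.71e-12), and Actn1, encoding alpha actinin, had 16513 ± 117 in DKO RA against 12037 ± 228 in WT RA (1.37 times, 1.31e-10). Ccn2, a matricellular growth factor gene, had 858 ± 51.1 in DKO RA against 419 ± 34.1 in WT RA (2.05 times, 6.09e-11).

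In serum/LIF, Ccn2 stood at 1939.97 ± 61.0 in DKO against 613 ± 16.5 in WT, Tgfb1i1 at 301 ± 43.8 in DKO against 63.1 ± 16.4 in WT, and Amotl2 at 3195.5 ± 216 in DKO against 1495 ± 91.3 in WT (SD, n = 3). Tgfb1i1 encodes an adhesion adaptor also called Hic-5, and Amotl2 an angiomotin that binds actin and YAP. Not all targets went with the members under RA: Csrp2, encoding a LIM protein of smooth muscle, fell to 0.267 of serum/LIF in DKO (1174 ± 40.4 in DKO RA against 4396 ± 89.8 in DKO serum/LIF, limma adjusted p = 9.20e-20) and to 0.268 in WT (6.31e-20).

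Of 18 other smooth muscle genes tested, 7 were called higher in DKO after RA and 2 lower (median log2 0.23), where 22.0% of all genes were called higher and 20.7% lower. The 2 lower were 1 without DKO RA replicate 3 or WT RA replicate 1. Notch3, a receptor of mural cells, rose 1.49 times (6643 ± 40.1 normalized counts in DKO RA against 4463 ± 108 in WT RA, limma adjusted p = 1.59e-10). Npnt, encoding the matrix protein nephronectin, rose 1.88 times (4209.6 ± 169 in DKO RA against 2238 ± 122 in WT RA, 2.38e-06). Des, which encodes desmin, the intermediate filament of muscle, fell to 0.299 of WT (859 ± 29.2 in DKO RA against 2875 ± 135 in WT RA, 1.98e-15). Des thus joined Myl9 and Cnn1 among the contractile genes lower in DKO after RA. Smtn, of the same list as Des, went the other way and rose 1.24 times (3923 ± 69.9 in DKO RA against 3153 ± 89.6 in WT RA, limma adjusted p = 7.32e-05).

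Myh11 and Mylk belong to the contractile apparatus of mature smooth muscle. Myh11, the smooth muscle myosin heavy chain, had 227 ± 27.5 normalized counts in DKO RA, 202 ± 19.7 in WT RA, 37.7 ± 19.0 in DKO serum/LIF and 19.3 ± 6.97 in WT serum/LIF (SD, n = 3). Mylk, the kinase that phosphorylates the Myl9 product, had 97.8 ± 15.7 in DKO RA and 107 ± 19.6 in WT RA. Cald1, encoding the actin-binding caldesmon of many cells, was abundant, with 9386 ± 222 in DKO RA, 8795 ± 449.8 in WT RA, 4244 ± 80.2 in DKO serum/LIF and 1779 ± 88.2 in WT serum/LIF. RA raised 13 of the 18 in DKO and 14 in WT, with 0 in DKO and 1 in WT called lower. Of all genes, RA raised 40.2% in DKO and 41.4% in WT, and lowered 38.2% in DKO and 39.2% in WT.

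Other actin, tropomyosin, calponin and myosin genes went both ways. After RA 10 of 22 were called higher in DKO and 5 lower (median log2 0.08), against 22.0% and 20.7% of all genes. Actg1 rose 1.35 times (limma adjusted p = 7.83e-11) and Myh9, the non-muscle myosin heavy chain that pairs with the regulatory light chains, rose 1.33 times (9.14e-09). Mylpf and Myl7, also in this list, moved further and in opposite directions. Mylpf rose 3.31 times (933 ± 92.2 normalized counts in DKO RA against 281 ± 36.2 in WT RA, limma adjusted p = 1.09e-12). Myl7 fell to 0.173 of WT (32.0 ± 8.32 in DKO RA against 185 ± 32.1 in WT RA, limma adjusted p = 3.03e-09). Acta1, the skeletal actin gene, had 209.96 ± 17.7 normalized counts in DKO serum/LIF against 37.7 ± 9.71 in WT serum/LIF. RA lowered Actb in both genotypes, to 0.551 of serum/LIF in DKO and 0.428 in WT (limma adjusted p = 1.55e-18 and 9.37e-22).

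TGF-beta is a classic inducer of Acta2 and Tagln. Of 21 genes of its signalling, 8 were called higher in DKO after RA and 1 lower (median log2 0.09), against 22.0% and 20.7% of all genes. The 8 were 5 without DKO RA replicate 1, DKO RA replicate 3 or WT RA replicate 2. The 1 lower was 6 with only the compared groups in the fit and 3 with edgeR, and it was 2 with DESeq2, with log2(value + 8), in limma without trend and robust fitting, and without DKO serum/LIF replicate 1 or 3. Tgfb1, a ligand, rose 1.46 times in DKO after RA (293 ± 45.3 normalized counts in DKO RA against 201 ± 35.9 in WT RA, limma adjusted p = 0.00388). Tgfbi, a TGF-beta-induced matrix gene, fell to 0.307 of WT (971 ± 55.5 in DKO RA against 3163 ± 101 in WT RA, 2.75e-12). In serum/LIF, 11 of 21 were called higher and 2 lower, against 17.8% and 15.4% of all genes. Thbs1, encoding the latent TGF-beta activator thrombospondin 1, stood there at 4154 ± 35.1 in DKO against 774 ± 39.3 in WT, and Tgfb2 at 417 ± 15.3 in DKO against 119 ± 19.2 in WT (SD, n = 3). Tgfbi was called lower there, at 139 ± 27.9 in DKO against 311 ± 10.5 in WT. Tgfb1 was not called there, at 245 ± 23.0 in DKO against 202 ± 18.1 in WT.

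Markers of other cell types moved with some of these results, and their part in them was not tested. Fibroblast markers summed to 104148 to 106339.7 normalized counts in DKO RA, 89553 to 94308 in WT RA, 66218 to 72306 in DKO serum/LIF and 46663 to 48469 in WT serum/LIF, the same order of groups as Acta2. The sums leaned on abundant genes such as Vim and Col1a1, with 22387 ± 258 and 22208 ± 849 normalized counts in DKO RA. After RA, 7 of 20 markers were called higher in DKO and 5 lower (9 lower with only the compared groups in the fit), where 22.0% and 20.7% of all genes were. The list median log2 fold change of DKO over WT was then -0.17, against 0.01 over all genes. Col3a1 rose 2.50 times (limma adjusted p = 4.33e-12) and Loxl1 fell to 0.263 of WT (2.57e-09), while Pdgfra had 469 ± 23.5 in DKO RA and 626 ± 32.1 in WT RA. In serum/LIF, 14 of 20 were called higher in DKO and 1 lower (2 lower without DKO serum/LIF replicate 2), where 17.8% and 15.4% of all genes were.

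RA raised 14 of 19 extraembryonic endoderm markers in DKO and 15 in WT, where it raised 40.2% of all genes in DKO and 41.4% in WT. They summed to 67506 to 68015 in DKO RA, 63815 to 67791 in WT RA, 36800.2 to 38741 in DKO serum/LIF and 30436 to 31064 normalized counts in WT serum/LIF. After RA 6 of 19 were called higher in DKO and 5 lower, against 22.0% and 20.7% of all genes, the 5 being 3 without any 1 of 5 of the 6 RA libraries, all but DKO RA replicate 1. Gata4, a marker of that endoderm, had 195 ± 17.2 in DKO RA and 60.6 ± 13.6 in WT RA (3.21 times, limma adjusted p = 3.45e-05). Gata6, of the same list, had 877 ± 63.0 in DKO RA and 1076 ± 72.1 in WT RA.

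Skeletal and cardiac muscle markers summed to 1337 to 1429.9 in DKO RA, 1338 to 1523 in WT RA, 3035 to 3117 in DKO serum/LIF and 3203 to 3301 in WT serum/LIF. The sums leaned on a few genes such as Ttn, encoding titin, with 45.5 ± 23.8 normalized counts in DKO RA against 1065 ± 38.7 in DKO serum/LIF, while Tnnt3, encoding a skeletal troponin T, had 378 ± 27.1 in DKO RA against 16.0 ± 7.80 in DKO serum/LIF (SD, n = 3). RA raised 6 of 19 in DKO and lowered 9, and raised 7 in WT and lowered 10, against 40.2% of all genes raised and 38.2% lowered in DKO and 41.4% raised and 39.2% lowered in WT. With the filter at a value of 50 the numbers raised were 3 in DKO and 4 in WT. Myod1 and Myog, which define skeletal muscle, were under the filter, with group means of 1.80 to 3.76 and 2.40 to 10.6 normalized counts. After RA 2 of 19 were called higher in DKO and 2 lower, against 22.0% and 20.7% of all genes. They were 5 higher without WT RA replicate 2, and 1 lower without DKO RA replicate 2 or WT RA replicate 1, with the filter at 50, and in limma without trend and robust fitting.

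Pluripotency markers, which mark undifferentiated stem cells, were counted in the same way. After RA 13 of 14 were called higher in DKO than in WT and 1 lower, against 22.0% and 20.7% of all genes. In serum/LIF 0 were called higher and 7 lower, against 17.8% and 15.4%. Pou5f1, which encodes the pluripotency factor Oct4, had 1230.4 ± 35.7 normalized counts in DKO RA, 428 ± 34.4 in WT RA, 30891 ± 474 in DKO serum/LIF and 33444 ± 730.3 in WT serum/LIF (SD, n = 3). DKO RA thus held more Pou5f1 together with more Acta2, Tagln, Tagln2, Cnn2 and Tpm1 and less Myl9, Cnn1 and Des than WT RA. Whether the same cells held both cannot be told from bulk RNA.

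**Figure D4:**
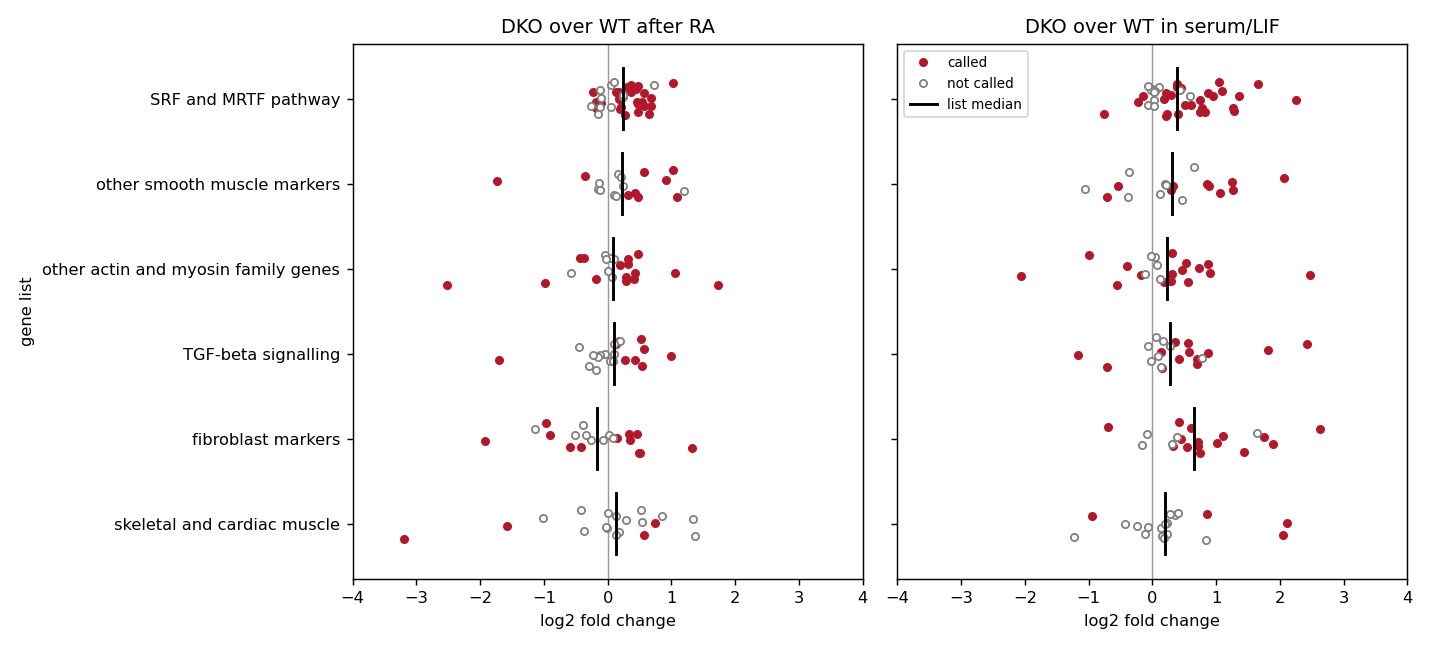
Log2 fold change of DKO over WT for the genes of 6 related lists, after RA (left) and in serum/LIF (right); filled points were called, open points were not, and bars are list medians. The SRF and MRTF list has medians of 0.24 after RA and 0.39 in serum/LIF, and the fibroblast list has -0.17 after RA and 0.66 in serum/LIF.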

How the data were processed

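RNA-seq of 12 libraries in 4 groups of 3 was used, grouped by the sample titles and genotype labels. Per the submitters' processing notes, the tools were DESeq2 1.44.0, featureCounts (Subread 2.0.6), STAR 2.7.11b and Trim Galore 0.6.10, with mm10 as build; the sources used here give no strand or multi-mapping settings. The deposited gene values are a signal, counts that the authors divided by a size factor for each library: 100% of values were whole reads within 0.01 once multiplied back. Each library held 30869766 to 40236799 reads in genes.

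Values were transformed as log2(value + 1), and the 15750 genes that reached 10 in 3 libraries or more were fitted with limma 3.58.1 (R 4.3.3; trend and robust, 1 mean per group, all 12 libraries, no replicate block), with Benjamini-Hochberg adjustment over all genes and a threshold of 0.05. Log2 fold changes are on this scale, which understates changes of low genes; ratios are of group means. On the recovered reads, edgeR's quasi-likelihood test (edgeR 4.0.16) called 7097 genes between DKO and WT after RA, 5323 in serum/LIF, 12317 for RA in DKO and 12721 for RA in WT; limma called 6727, 5230, 12340 and 12695.

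The members and the gene lists were chosen with earlier results of these data known. Named list genes are up to 4 called genes per list and comparison with the smallest adjusted p, the regulators Srf, Myocd, Mrtfa, Mrtfb and Tgfb1, and defining markers; the text names part of this choice. Likeness took the 5 genes with the highest correlation to Acta2 and to Tagln, predicted genes left out; the genes most like Tagln are not reported here. Gene spans are those given with the deposited gene values. Transcript lengths, transcript sequences and exon overlaps are from GENCODE vM21, and promoters are from RefSeq. The limma fit was tested on simulated data for DKO against WT after RA, and edgeR's test was not. Alternatives were other pseudocounts, filters, normalizations, tests and samples in the fit, a replicate block, and leaving out each library.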

Additional observations from a re-analysis of the deposited data

Results flagged for a closer look

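Only the members and named list genes were searched for effects that reversed between conditions or between genotypes. In a few, the library ranges lay apart in opposite directions. The difference between the effects was not tested, and the values in serum/LIF belong to the comparison that led to the choice of the members. Among the members this was Cnn1, with a DKO to WT ratio of 0.738 after RA and 1.57 in serum/LIF. Ccn1, a target of SRF, had DKO to WT ratios of 0.884 after RA and 2.05 in serum/LIF, and RA to serum/LIF ratios of 0.891 in DKO and 2.07 in WT. For Mrtfb the DKO to WT ratios were 0.881 after RA and 1.16 in serum/LIF, and for the non-muscle myosin gene Myh10 they were 0.880 after RA and 1.48 in serum/LIF. Actb went the other way, with 1.14 after RA and 0.888 in serum/LIF. Thbs1 had RA to serum/LIF ratios of 0.301 in DKO and 1.19 in WT. Pou5f1 had DKO to WT ratios of 2.88 after RA and 0.924 in serum/LIF.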

How the results depend on the processing

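The numbers of members called after RA between genotypes (5 higher, 2 lower) and for RA in DKO and in WT (9 higher each, 0 lower) were the same in each of the 23 alternatives, as were direction and call for the 27 member comparisons fitted; those of RA with serum/LIF are a description, since those libraries chose the genes. Of the described serum/LIF differences, that of Actg2 moved to a log2 value of 1.15 with log2(value + 8). Over the settings the numbers of genes called stayed within 1.5 times: 6033 to 7363 between genotypes after RA, and 5727 to 6841 with 1 library left out. With the replicate number as a block the calls were 6537 after RA, 5061 in serum/LIF, 12282 for RA in DKO and 12651 for RA in WT, with 7, 9 and 9 members called in the 3 comparisons fitted. Same-numbered libraries deviated together little (correlations of -0.03 to 0.05, 0 of 12 over 0.1), which cannot settle whether the numbers pair the samples. Libraries correlated best with their own number for 3 of 3 between DKO and WT in serum/LIF and for 2 of 3 after RA. Between RA and serum/LIF it was 0 of 3 in each genotype. That made 5 of 12 in all, with 3 numbers to match each time. It comes from the data and not from the design, and does not show whether the numbers pair the samples.

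Small uncalled differences of 3 list genes changed sign. With 1 library left out, Myocd ranged over log2 -0.29 to 0.035 between genotypes after RA and -0.26 to 1.02 in serum/LIF, Srf over -0.053 to 0.020 for RA in DKO, and Tgfb1 over -0.14 to 0.12 for RA in WT. With upper-quartile scaling Srf was 0.016 for RA in DKO and Tgfb1 was 0.0070 for RA in WT. Of 1472 counts of list genes over the alternatives, 46 moved by over 1.5 times, and those behind a count given above are named there. The cause was not tested. With 3 libraries a group, low genes such as Actg2 and Myocd have wide errors.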
